A study of Homo sapiens with 12 samples.

Results

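Claudins and their partners at the tight junction were read as 7 listed genes: CLDN1, CLDN4, CLDN7, CLDN12, OCLN, TJP1 and F11R. A member was any probe set annotated with the single symbol of one of these genes, which gave 12 of the 54675 probe sets on the array and covered 6 of the 7 genes. No probe set carried the symbol F11R alone, and that gene was not analysed here. The genes were chosen with their log2 intensities in the 4 groups known, so their values are given as a description, without a test.

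Tight junctions seal the space between neighbouring epithelial cells. Claudins are membrane proteins that line this seal and set which ions pass it, occludin (OCLN) is a membrane partner with another fold, and ZO-1 (TJP1) is the scaffold beneath them that ties both to actin. The line studied, MDA231 (MDA-MB-231), is an established triple-negative human breast cancer line usually placed among claudin-low lines, which are known for little CLDN3, CLDN4, CLDN7 and E-cadherin.

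Gene expression was measured on 12 single-colour Affymetrix arrays, 3 for each of 4 groups of MDA231 cells. The ETX group carried a scrambled short hairpin RNA and was treated with ETX. The labels leave that abbreviation unexplained; it is taken to be etomoxir, a drug that blocks carnitine palmitoyltransferase 1 (CPT1). The shCPT-1 and shCPT-2 groups carried a short hairpin RNA against CPT1 or CPT2, the enzymes that bring long-chain fatty acids into mitochondria, and per the labels these hairpins were pGIPZ lentiviral constructs. The scramble group carried the scrambled hairpin without ETX. All 4 groups thus carry a hairpin, the knockdown groups received no ETX, and no vehicle is named for the scramble arrays. The sources used here state neither how much ETX these cells received nor for how long, nor whether each hairpin line was a clone or a pool. The labels do not say whether a group's 3 arrays were separate cultures, so SDs, SEs and p-values cover the spread of these arrays alone, and that spread may be technical.

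The median log2 intensity of an array was 6.23 to 6.27, and correlations between arrays of a group (0.9945 to 0.9989) lay above those between groups (0.974 to 0.9913). CPT1A, the liver-type CPT1 isoform, averaged 8.19 ± 0.13 log2 units in shCPT-1, against 9.78 ± 0.12 in scramble (SD, n = 3 each), and stood at 10.89 ± 0.09 with ETX and 9.55 ± 0.06 in shCPT-2. CPT2 averaged 6.41 ± 0.19 in shCPT-2, 7.68 ± 0.04 with ETX, 7.63 ± 0.18 in shCPT-1 and 7.41 ± 0.09 in scramble. Group means of VIM, the mesenchymal intermediate filament protein, lay between 14.48 and 14.54, and no probe set of CDH1, the E-cadherin gene, was above the array median on 3 arrays. In scramble, CD44, FN1, AXL, CAV1, CAV2, LGALS1 and MSN averaged between 10.50 and 13.48. CDH2 and SPARC, listed with them as mesenchymal and claudin-low line markers, averaged 6.31 and 6.35, near the array medians. The epithelial genes KRT18, KRT8 and EPCAM averaged 12.81, 10.92 and 9.02 in scramble. For the actin control probe sets the 3′ signal less the 5′ signal, which tracks RNA integrity or labelling, was 1.75 ± 0.06 with ETX, 1.73 ± 0.23 in shCPT-1, 1.68 ± 0.23 in shCPT-2 and 2.07 ± 0.27 in scramble (SD of 3 arrays). Its mean was highest in scramble, and it was entered as a covariate in a setting chosen after seeing the data.

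CLDN4 and CLDN1 had the widest spread between groups of the 6 measured genes, and their patterns differed. CLDN4, which is also a receptor of Clostridium perfringens enterotoxin, was higher in both knockdown lines and level with scramble under ETX. CLDN1, a claudin needed for the barrier of the skin, was higher than scramble in all 3 other groups, most so in shCPT-2. In bulk RNA such as this, fewer cells that make an RNA and less of that RNA per cell cannot be told apart. The difference of shCPT-1 from scramble was 1.62 ± 0.15 (SE) log2 units for CLDN4, 3.08-fold, and that of shCPT-2 from scramble was 1.27 ± 0.08 for CLDN1, 2.42-fold.

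By array, probe set 201428_at of CLDN4 read 6.63, 6.70 and 7.19 log2 units with ETX, 8.62, 8.47 and 8.36 in shCPT-1, 7.90, 7.47 and 7.64 in shCPT-2, and 6.87, 6.68 and 7.02 in scramble. The 3 groups shCPT-1, shCPT-2 and scramble did not overlap, whereas ETX and scramble did, with the third ETX array above every scramble array and the first below every one. In intensity units the arrays ran from 328.5 to 392.7 in shCPT-1, from 177.6 to 238.9 in shCPT-2, from 98.84 to 145.6 with ETX and from 102.3 to 129.8 in scramble. ETX differed from scramble by -0.02 ± 0.15 log2 units. The shCPT-2 line stood 0.81 ± 0.15 above scramble, 1.76-fold, and 0.81 ± 0.15 below shCPT-1. With ETX, CLDN4 also had the widest SD of any member in any group, 0.30.

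The other CLDN4 probe set, 1569421_at, showed none of this. It lay under the array median on all 12 arrays, at 6.06 ± 0.11 with ETX, 6.03 ± 0.06 in shCPT-1, 6.01 ± 0.04 in shCPT-2 and 6.03 ± 0.11 in scramble. Its differences from scramble were 0.03, -0.01 and -0.02 with an SE of 0.07 each. The CLDN4 pattern therefore rests on 1 probe set. CLDN3, the claudin gene that lies nearest to CLDN4 in the RefSeq annotation of GRCh38.p14, had 2 probe sets, neither of which was above the array median on any array.

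For CLDN1, probe set 222549_at read 7.87, 7.75 and 7.81 log2 units with ETX, 7.33, 7.45 and 7.34 in shCPT-1, 8.15, 7.86 and 8.05 in shCPT-2, and 6.79, 6.82 and 6.63 in scramble. Every array of the 3 altered groups lay above the highest scramble array. Differences from scramble were 1.06 ± 0.08 with ETX (2.09-fold), 0.62 ± 0.08 in shCPT-1 (1.54-fold) and 1.27 ± 0.08 in shCPT-2. In the order of levels shCPT-2 came first and ETX next, and these neighbours overlapped by array, with means 0.21 apart. ETX and shCPT-1 did not overlap, nor did shCPT-1 and scramble.

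The other CLDN1 probe set, 218182_s_at, gave the same order of groups at a dimmer signal. It read 5.64, 5.81 and 5.53 with ETX, 5.54, 5.27 and 5.36 in shCPT-1, 5.67, 5.90 and 5.65 in shCPT-2, and 5.05, 4.94 and 4.93 in scramble. All 12 arrays were below the array median, so it was left out by the filter on dim probe sets, and its differences of 0.69, 0.42 and 0.77 (SE 0.09 each) were smaller than those of 222549_at. CLDN1 lies within the span that the same annotation gives CLDN16. CLDN16, a claudin of kidney magnesium handling, differed from scramble by 0.24 ± 0.08 with ETX (limma adjusted p = 0.0227), 0.09 ± 0.08 in shCPT-1 and 0.07 ± 0.08 in shCPT-2. Its ETX call ended without scramble replicate 1, ETX replicate 1 or ETX replicate 3, with only the 2 groups compared in the fit, and with the actin covariate (limma adjusted p between 0.0506 and 0.174).

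**Figure D1:**
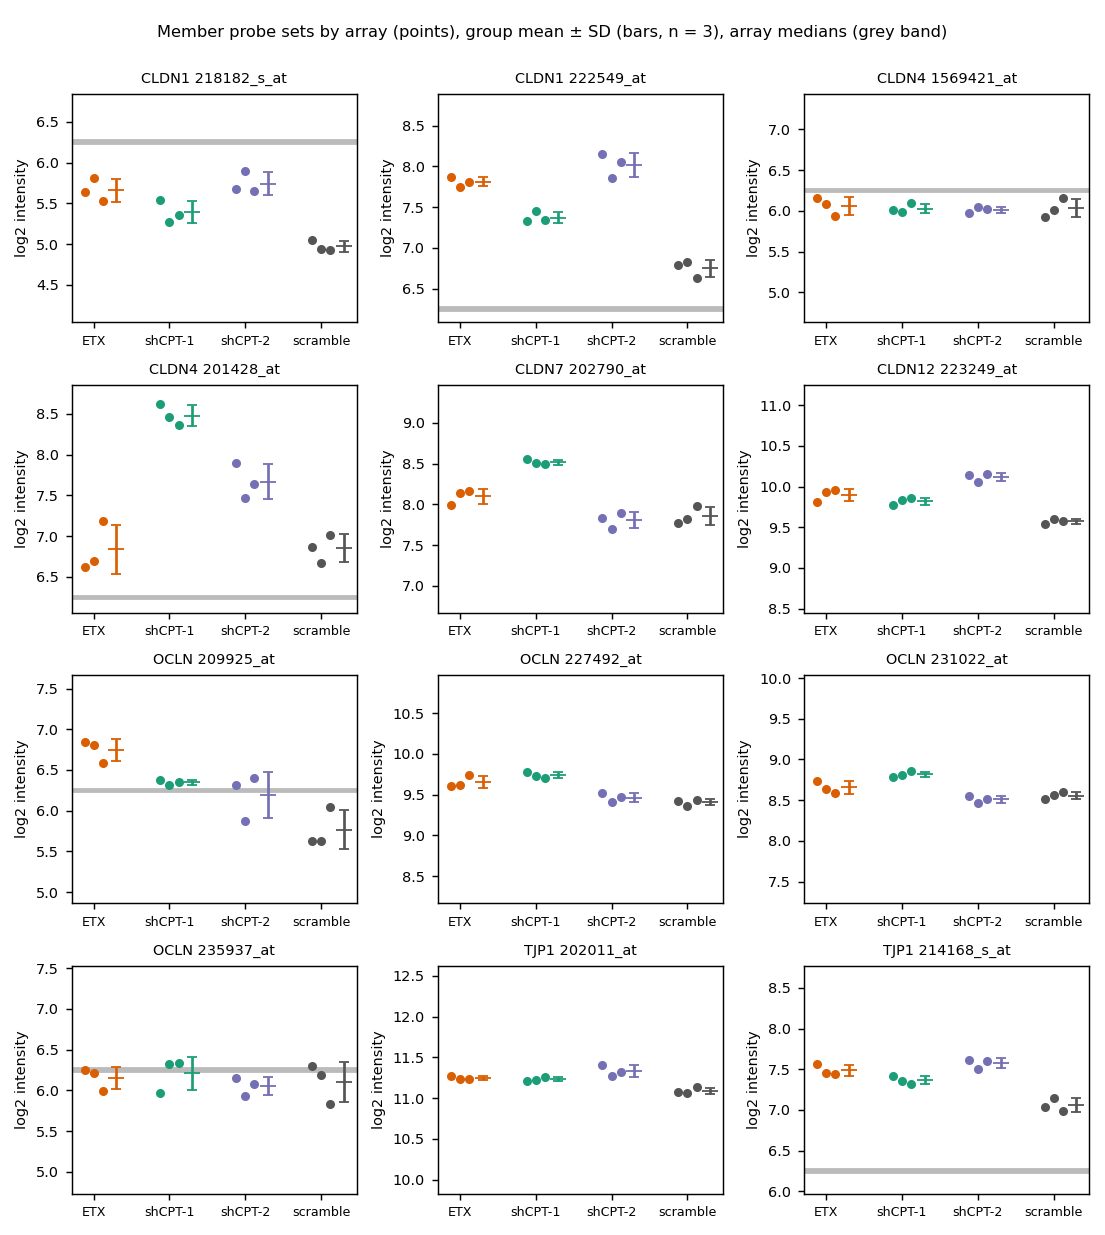
Log2 intensity of each of the 12 member probe sets (vertical axis, the same span in every panel) on each array (points) in ETX, shCPT-1, shCPT-2 and scramble, with the mean and SD of 3 arrays as bars and the range of array medians as a grey band. CLDN4 201428_at is highest in shCPT-1, CLDN1 222549_at is lowest in scramble, and CLDN7 202790_at is highest in shCPT-1.

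CLDN7, a basolateral claudin of many epithelia that binds EPCAM, had 1 probe set and a pattern of its own. It read 8.0, 8.14 and 8.16 log2 units with ETX, 8.55, 8.51 and 8.49 in shCPT-1, 7.83, 7.70 and 7.89 in shCPT-2, and 7.78, 7.82 and 7.98 in scramble. The shCPT-1 arrays lay above all others, and the shCPT-2 and scramble arrays overlapped. Differences from scramble were 0.24 ± 0.07 with ETX, 0.66 ± 0.07 in shCPT-1 (1.58-fold) and -0.05 ± 0.07 in shCPT-2, and shCPT-2 stood 0.71 ± 0.07 below shCPT-1. The ETX arrays were separated from scramble by a narrow margin, 8.0 for the lowest ETX array and 7.98 for the highest scramble array. With the actin control as a covariate, a setting chosen after seeing the data, CLDN7 differed from scramble by 0.56 in shCPT-1 and -0.17 in shCPT-2.

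CLDN4 and CLDN7 thus both had their highest level in shCPT-1, whereas CLDN1 and CLDN12 were highest in shCPT-2. Luminal breast epithelium markers, of which 12 of 13 passed the filter on dim probe sets (above the array's median intensity on 3 arrays or more), had a summed intensity of 11440 to 11600 with ETX, 15080 to 15580 in shCPT-1, 12040 to 12950 in shCPT-2 and 13170 to 13880 in scramble. That sum was highest in shCPT-1 too, but it is linear and its brightest genes were KRT18, KRT19 and KRT8. Single markers went both ways in shCPT-1, with 3 called higher and 3 lower (limma, adjusted p under 0.05 over all tested genes) and a median of 0.05 log2 units. Of those, named after their values were seen, KRT19 rose by 0.73 ± 0.05, XBP1 by 0.47 ± 0.09 and KRT8 by 0.28 ± 0.05. KRT7 and GATA3 fell by 0.40 ± 0.06 and 0.33 ± 0.04. The other lower call, FOXA1, averaged 5.81 in shCPT-1, with every array under its median. It passed the filter through ETX and scramble, so that call is not read as support. The part of these markers in the claudin differences was not tested.

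CLDN12 is a claudin that lacks the usual tail motif for binding ZO proteins, and its probe set 223249_at read 9.81, 9.93 and 9.95 with ETX, 9.77, 9.84 and 9.85 in shCPT-1, 10.14, 10.06 and 10.15 in shCPT-2, and 9.53, 9.60 and 9.58 in scramble. The shCPT-2 arrays were all above the other groups and the scramble arrays all below them, while ETX and shCPT-1 overlapped. Differences from scramble were 0.33 ± 0.06, 0.25 ± 0.06 and 0.55 ± 0.06 in ETX, shCPT-1 and shCPT-2, the last of them 1.46-fold. A further probe set names CLDN12 together with another gene and was not used.

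The sequences upstream of CLDN4, CLDN1 and CLDN7 are shown because these genes set the 3 patterns described above and because SNAI2, a repressor that binds E-boxes, and the ETS factors EHF and SPDEF differed between the same groups. They are the 250 bases before the annotated start, from RefSeq on GRCh38.p14, read 5′ to 3′ along the gene's strand. Capitals mark an E-box of the letters CAGGTG or an ETS-type motif of the letters CGGAAG, on either strand. The first is found in 17.5% and the other in 16.5% of 35116 upstream windows of this length in the table. Matches are a description of these letters and not of binding. Whether SNAI2, EHF or SPDEF acts on these genes was not tested.
CLDN4 (chr7:73830746-73830995, plus strand): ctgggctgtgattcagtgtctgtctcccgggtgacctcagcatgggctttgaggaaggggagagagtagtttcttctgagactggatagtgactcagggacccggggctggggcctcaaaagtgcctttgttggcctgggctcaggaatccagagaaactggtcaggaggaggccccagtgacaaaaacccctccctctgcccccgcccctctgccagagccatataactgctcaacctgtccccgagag
CLDN1 (chr3:190322447-190322696, minus strand): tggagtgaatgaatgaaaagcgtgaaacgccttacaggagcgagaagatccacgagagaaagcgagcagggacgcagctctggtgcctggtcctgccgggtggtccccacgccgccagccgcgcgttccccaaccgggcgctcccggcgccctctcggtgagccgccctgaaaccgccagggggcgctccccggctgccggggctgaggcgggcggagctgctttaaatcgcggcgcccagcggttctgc
CLDN7, outer start (chr17:7263214-7263463, minus strand): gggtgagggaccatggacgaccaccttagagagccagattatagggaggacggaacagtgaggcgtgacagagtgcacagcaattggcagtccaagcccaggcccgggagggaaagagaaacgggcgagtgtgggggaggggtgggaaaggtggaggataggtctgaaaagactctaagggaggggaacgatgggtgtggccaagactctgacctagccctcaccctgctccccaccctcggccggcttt
CLDN7, inner start (chr17:7262479-7262728, minus strand): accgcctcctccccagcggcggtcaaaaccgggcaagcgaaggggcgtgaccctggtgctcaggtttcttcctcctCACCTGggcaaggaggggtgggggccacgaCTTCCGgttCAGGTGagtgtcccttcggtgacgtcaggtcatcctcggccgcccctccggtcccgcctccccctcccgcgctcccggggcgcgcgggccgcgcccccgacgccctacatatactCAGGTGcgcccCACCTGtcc

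The windows of CLDN4, CLDN1 and the outer CLDN7 start held neither motif. The window of the inner CLDN7 start held 4 E-boxes, beginning 174, 135, 20 and 9 bases before the start, and 1 ETS-type motif. CLDN4 had 4 CpG pairs in its window and a GC content of 58.8%, CLDN1 had 28 CpG pairs and 68.8%, and the inner CLDN7 start had 25 and 71.2%, against medians of 11 and 58.0% over all windows. Of the other members, both OCLN windows and 1 of the 4 TJP1 windows held 1 E-box each, and another TJP1 window held an ETS-type motif.

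SNAI2 fell in all 3 groups, which share the scramble arrays, by 0.21 ± 0.05 with ETX, 0.49 ± 0.05 in shCPT-1 and 0.53 ± 0.05 in shCPT-2 (limma adjusted p = 0.00656, 9.63e-06 and 3.97e-06). EHF, an epithelial ETS factor, averaged 10.11 ± 0.04 log2 units with ETX, 7.83 ± 0.08 in shCPT-1 and 6.18 ± 0.06 in shCPT-2, against 9.83 ± 0.12 in scramble (SD, n = 3 each). It rose with ETX and fell in shCPT-1 (limma adjusted p = 0.0053 and 7.19e-10). Its shCPT-2 arrays lay under the array medians, so it passed the filter through the other groups and its shCPT-2 difference is given as values alone. SPDEF, an ETS factor of secretory epithelia, averaged 8.64 ± 0.01 with ETX, 8.39 ± 0.05 in shCPT-1 and 7.63 ± 0.06 in shCPT-2, against 9.54 ± 0.12 in scramble. ZEB2, another repressor that binds E-boxes, averaged 6.99 ± 0.04 with ETX, 6.55 ± 0.13 in shCPT-1 and 6.57 ± 0.27 in shCPT-2. In scramble ZEB2 averaged 6.09 ± 0.42, a mean under the array medians. Of 9 tested claudin repressors and epithelial activators, 2 were higher and 2 lower with ETX, 0 and 3 in shCPT-1, and 2 and 3 in shCPT-2. Those shares, 44.4%, 33.3% and 55.6%, stand beside 41.3%, 41.1% and 46.1% of all tested genes called in either direction. EHF is counted among the 3 lower in shCPT-2, and its call there is not read as support. ZEB2 is counted among the 2 higher with ETX and the 2 higher in shCPT-2. Its scramble arrays read 6.22, 6.42 and 5.62, so it passed the filter mainly through the other groups. The ZEB2 calls are not read as support either.

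OCLN was covered by 4 probe sets, which did not give 1 answer. The probe set standing for the gene, 227492_at, read 9.61, 9.62 and 9.74 with ETX, 9.78, 9.73 and 9.71 in shCPT-1, 9.52, 9.41 and 9.47 in shCPT-2, and 9.43, 9.36 and 9.43 in scramble. ETX and shCPT-1 overlapped each other and lay above scramble, by 0.25 ± 0.06 and 0.33 ± 0.06, while shCPT-2 overlapped scramble (0.06 ± 0.06). Probe set 231022_at gave 0.26 ± 0.06 in shCPT-1, the 1 group that did not overlap scramble, with 0.10 ± 0.06 under ETX and -0.05 ± 0.06 in shCPT-2.

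The largest OCLN differences came from a dim probe set. Probe set 209925_at read 6.84, 6.81 and 6.59 with ETX, 6.37, 6.32 and 6.35 in shCPT-1, 6.32, 5.87 and 6.40 in shCPT-2, and 5.63, 5.63 and 6.04 in scramble. The shCPT-2 and scramble arrays overlapped. No scramble array was above its median for this probe set, so the probe set passed the filter through the other groups and its differences are not read as support. Its differences were 0.98 ± 0.14 with ETX, 0.58 ± 0.14 in shCPT-1 and 0.43 ± 0.14 in shCPT-2, and they were 0.74, 0.33 and 0.14 with the actin control as a covariate, a setting chosen after seeing the data. The last OCLN probe set, 235937_at, lay near the array medians at 6.15, 6.21, 6.06 and 6.11 in ETX, shCPT-1, shCPT-2 and scramble, and all groups overlapped.

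TJP1 stood above scramble in all 3 other groups, by at most 0.24 log2 units in its brighter probe set. Probe set 202011_at read 11.27, 11.24 and 11.24 with ETX, 11.21, 11.22 and 11.26 in shCPT-1, 11.41, 11.27 and 11.32 in shCPT-2, and 11.07, 11.06 and 11.13 in scramble. The scramble arrays lay below all others, by small margins: 0.16, 0.14 and 0.24 for ETX, shCPT-1 and shCPT-2 (SE 0.06 each). With quantile normalization again the differences of this TJP1 probe set were 0.12 with ETX and 0.094 in shCPT-1. Probe set 214168_s_at kept that order of groups with differences of 0.43, 0.31 and 0.51 (SE 0.06 each), all larger than those of 202011_at. On the deposited values the 2 probe sets thus gave 1.12-fold and 1.35-fold with ETX, 1.11-fold and 1.24-fold in shCPT-1, and 1.18-fold and 1.43-fold in shCPT-2.

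**Figure D2:**
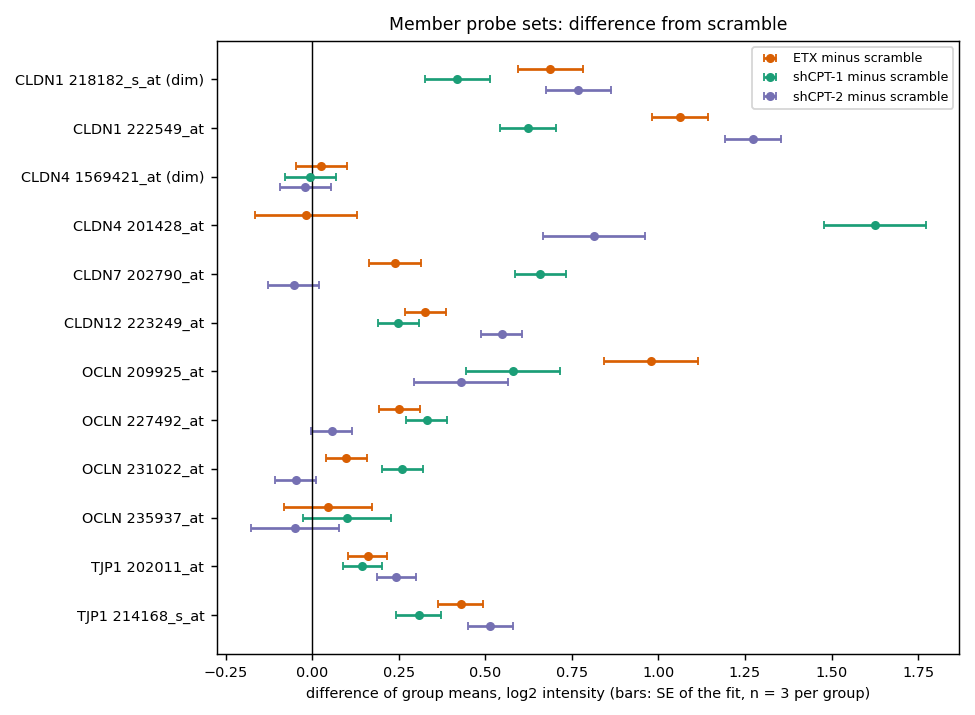
Difference of each member probe set from scramble (horizontal axis, log2 units) in ETX, shCPT-1 and shCPT-2, with the SE of the fit. Probe sets marked dim exceeded the array median on fewer than 3 arrays. CLDN4 201428_at in shCPT-1 lies farthest from 0, at 1.62, and the 2 probe sets of CLDN4 do not move together.

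With 1 probe set for each gene, the members' median difference was 0.25, 0.48 and 0.40 log2 units in ETX, shCPT-1 and shCPT-2, beside -0.01, 0.01 and 0.00 over all tested genes. Counted by probe set, 8, 10 and 6 of 12 had no overlap with scramble, against 31.1%, 32.0% and 33.8% of all non-control probe sets. The members were chosen on these values, so nothing is read from the counts.

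Set against each other, the knockdown lines differed by 0.65 ± 0.08 for CLDN1 and 0.30 ± 0.06 for CLDN12, both higher in shCPT-2, and by -0.27 ± 0.06 for OCLN, while TJP1 differed by 0.10 ± 0.06. All 6 genes had arrays that did not overlap between these lines, as did 48.6% of tested genes. These values too were known when the genes were chosen, and they are a description.

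By the size of their 3 differences from scramble, the tested genes nearest to CLDN4 were EEF1A2, L1CAM and TRAPPC1, with root mean square distances of 0.14, 0.22 and 0.23 log2 units over the 3 differences. EEF1A2 differed from scramble by -0.24, 1.53 and 0.85 in ETX, shCPT-1 and shCPT-2. Nearest to CLDN1 were MYC, KIF2A and KCNQ3, at 0.15, 0.15 and 0.16, and MYC differed by 1.20, 0.71 and 1.07. No other member reached a difference of 1 log2 unit in the probe set that stands for it.

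The remaining claudins were mostly dim. Of 20 claudin genes with a probe set of their own, 11 kept one under the filter on dim probe sets, the 4 claudin members among them. Of the 7 others, 1 was called in each comparison with scramble, CLDN16 with ETX, as above, and CLDN9 in both knockdown lines. CLDN9 was 0.26 ± 0.07 lower in shCPT-1 and 0.25 ± 0.07 lower in shCPT-2 (limma adjusted p = 0.0072 and 0.00828). CLDN6, CLDN11, CLDN15, CLDN19 and CLDN23 passed in none of the 3 comparisons with scramble, with differences between -0.19 and 0.17 in the probe set that stands for each gene. Other probe sets of these genes differed more. A dimmer CLDN15 probe set that was also kept stood 0.19, 0.28 and 0.32 above scramble in ETX, shCPT-1 and shCPT-2 (SE 0.07 each), and a CLDN6 probe set under the array median on all arrays stood 0.42 ± 0.09 above it in shCPT-1. Over the 7 genes 14.3% were thus called in each comparison, while 41.3%, 41.1% and 46.1% of all tested genes were called in ETX, shCPT-1 and shCPT-2.

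**Figure D3:**
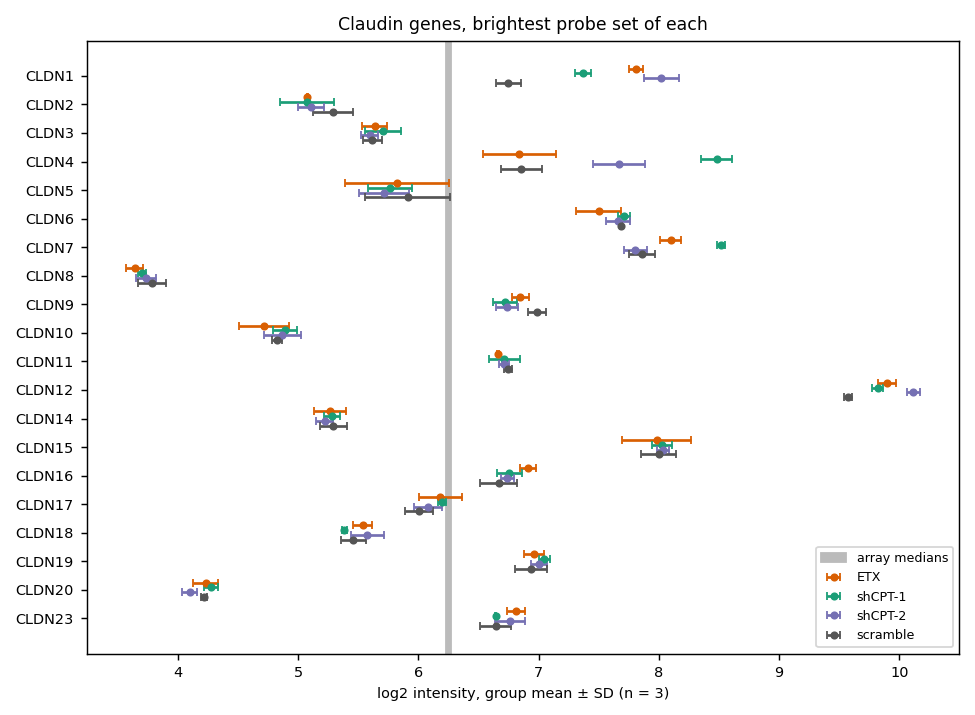
Log2 intensity (mean and SD of 3 arrays, horizontal axis) of the probe set with the highest mean of each of 20 claudin genes in ETX, shCPT-1, shCPT-2 and scramble, with array medians as a grey band. Groups are visibly apart for CLDN1, CLDN4, CLDN7 and CLDN12, and positions are not comparable between genes.

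Other tight junction genes, 37 tested of 63 listed, were called in both directions (limma, adjusted p under 0.05 over 12886 genes): 6 higher and 11 lower with ETX, 13 and 8 in shCPT-1, and 8 and 9 in shCPT-2. Of all tested genes 21.9%, 23.1% and 25.6% were called higher in these comparisons, and 19.4%, 18.0% and 20.5% lower. The list's medians were -0.04, 0.02 and 0.06 log2 units. The shares called were 45.9%, 56.8% and 45.9%, beside 41.3%, 41.1% and 46.1% of all tested genes. The ETX count of 17 was 10 without scramble replicate 1 and 8 with the actin covariate. Between the knockdown lines 5 were higher and 9 lower in shCPT-2, 37.8% against 35.5% of all genes, of which 17.7% were higher and 17.8% lower.

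Of 7 tested membrane partners, 1 was higher and 3 lower with ETX, 2 and 3 in shCPT-1, and 0 and 3 in shCPT-2, shares of 57.1%, 71.4% and 42.9% beside 41.3%, 41.1% and 46.1% of all tested genes. CXADR, an adhesion receptor used by coxsackieviruses, rose in shCPT-1 by 0.55 ± 0.07 and LSR, which recruits tricellulin to corners where cells meet, by 0.49 ± 0.08 (limma adjusted p = 6.42e-05 and 0.000393). In shCPT-2 relative to shCPT-1 they were 0.46 ± 0.07 and 0.36 ± 0.08 lower. MARVELD2, the tricellulin gene, averaged 5.90 in each knockdown line, against 6.39 in scramble. No knockdown array was above its median, so it passed the filter through ETX and scramble, and its 2 knockdown calls, counted above, are not read as support. CLMP, an adhesion molecule related to CXADR, rose by 0.31 ± 0.07 with ETX and fell by 0.48 ± 0.07 and 0.70 ± 0.07 in the knockdowns. ILDR2, a membrane protein related to LSR, fell by 0.70 ± 0.04 in shCPT-1 and by 0.19 ± 0.04 in shCPT-2, and the last of these was 0.14 higher with the mean of its probe sets.

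Of 11 tested plaque proteins, 3 were higher and 3 lower with ETX, 5 and 1 in shCPT-1, and 4 and 2 in shCPT-2, and of 12 polarity proteins 1 and 5, 6 and 3, and 4 and 3. The shares called were 54.5% in each comparison for plaque proteins and 50.0%, 75.0% and 58.3% for polarity proteins, beside 41.3%, 41.1% and 46.1% of all tested genes. PALS1, the centre of the Crumbs complex, rose by 0.44 ± 0.06 in shCPT-1 and 0.57 ± 0.06 in shCPT-2. AMOTL2, a plaque protein that binds YAP, rose by 0.53 ± 0.06 in shCPT-2 and CGN, the ZO-1 partner cingulin, by 0.51 ± 0.06. PARD6G, a PAR6 polarity subunit, read 8.21, 8.25 and 8.16 in shCPT-2, against 7.14, 7.32 and 7.24 in scramble, a rise of 0.98 ± 0.08 (limma adjusted p = 7.06e-07). PRKCZ, an atypical protein kinase C that binds PAR6, rose by 0.65 ± 0.07 in shCPT-1 and 0.42 ± 0.07 in shCPT-2, and fell by 0.23 ± 0.07 with ETX. RAB13, a vesicle GTPase of junction assembly, fell by 0.48 ± 0.06 in shCPT-2, and MARK2, a polarity kinase, by 0.32 ± 0.05, 0.45 ± 0.05 and 0.32 ± 0.05 in ETX, shCPT-1 and shCPT-2. Among the Scribble group of polarity proteins, LLGL1 rose by 0.56 ± 0.04 in shCPT-1 and 0.23 ± 0.04 in shCPT-2, and fell by 0.28 ± 0.04 with ETX. That ETX call ended with the mean of the gene's probe sets (limma adjusted p = 0.426). DLG1 rose by 0.38 ± 0.04 in shCPT-1, and SCRIB fell by 0.28 ± 0.07, 0.40 ± 0.07 and 0.38 ± 0.07 in ETX, shCPT-1 and shCPT-2. MPDZ, a scaffold that binds claudin tails, rose by 0.36 ± 0.06 with ETX.

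**Figure D4:**
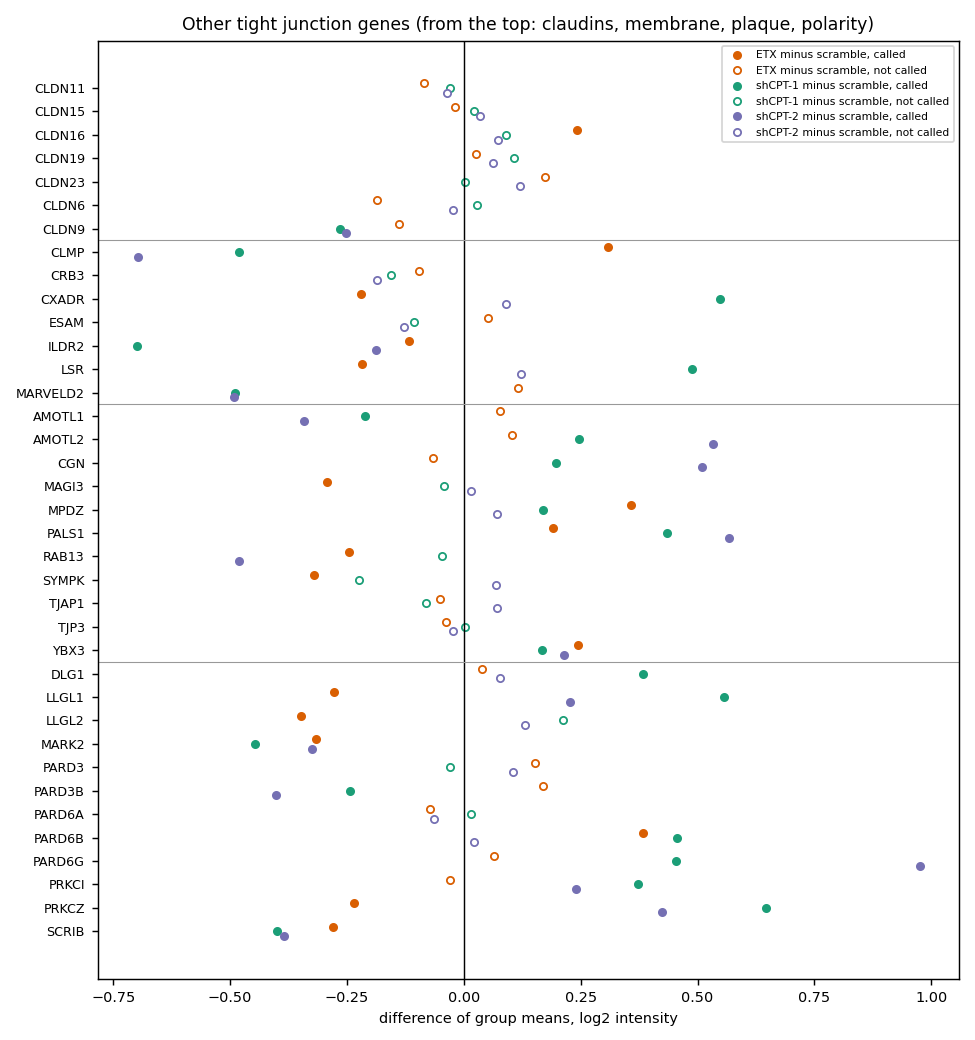
Difference from scramble (horizontal axis, log2 units) of 37 other tight junction genes in ETX, shCPT-1 and shCPT-2, grouped by role, with filled points for genes called at an adjusted p under 0.05. Among the claudins CLDN9 and CLDN16 alone have filled points, and PARD6G in shCPT-2 lies farthest to the right, at 0.98.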

How the data were processed

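The authors deposited linear-scale intensities, a single value for each probe set on each array, made with RMA per the submitters' processing notes. The sources used here give no version, settings or genome build. Of 54675 probe sets, 62 were controls, and 41091 of the others had 1 gene symbol in GEO's platform annotation, 1801 several and 11721 none. Values were converted to log2. A probe set was kept when above its array median on at least 3 arrays, and the kept probe set with the highest mean stood for its gene, which gave 12886 genes.

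Groups were compared with limma 3.58.1 (lmFit, eBayes, no covariates, all 12 arrays) in R 4.3.3, two-sided, at a Benjamini-Hochberg adjusted p under 0.05. Member SEs come from the same fit over all non-control probe sets. Genes named from lists were taken from up to 4 called genes per list and comparison with the smallest p, and not all of these are named. For some of them differences in further comparisons are given, such as SCRIB in both knockdown lines and PRKCZ with ETX. Those further differences, and the cell type markers, were not followed gene by gene through the other settings. Likeness was the root mean square distance over 3 differences. The members and lists were chosen with earlier results of these data known. Replicate numbers showed no clear pairing of the arrays. Deviations from group means correlated between -0.456 and 0.328 (median 0.045) for same-numbered arrays of different groups. For differently numbered arrays of different groups they correlated between -0.453 and 0.612 (median 0.029). What such arrays share was not tested. Arrays were also simulated with independent noise, changing few of 12886 genes in ETX. There 88 of 100 changes of 0.5 and 99 of 100 changes of 1 log2 unit were recovered, with 13 calls among 12686 unchanged genes. The real ETX comparison called 41.3% of genes, so the simulation does not measure the false calls in it. Settings tried are in the closing section. Figures used Python 3.11.15 and matplotlib 3.10.9. The number of arrays limits precision.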

Additional observations from a re-analysis of the deposited data

How the results depend on the processing

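Among the called differences chosen by smallest p, direction changed for ILDR2 in shCPT-2 against scramble alone. It was 0.14 with the mean of its probe sets in place of -0.19, since the probe sets of that gene differ. The count of other tight junction genes called with ETX was 8 with the actin control as a covariate, a setting chosen after seeing the data, and 10 without scramble replicate 1, in place of 17, and the cause was not tested. Leaving out each array in turn gave 10 to 18 such genes with ETX, 18 to 21 in shCPT-1, 17 in shCPT-2 throughout and 11 to 15 between the knockdown lines. With the replicate number as a block the counts were 15, 21, 17 and 13, each within 1.5 times of the count without it. No filter, a 25th percentile filter, mean probe sets, no _x_at or _s_at probe sets, quantile normalization again, median centring, eBayes with trend and robust, and only the groups compared also kept each count within 1.5 times. Of 48 member differences, 46 moved by less than the spread between arrays with quantile normalization again, 42 with the actin covariate, and 48 with median centring, with the replicate block and without each array in turn, the other settings run on member probe sets. Member differences rest on signal over background, which was lowest for CLDN1 218182_s_at, CLDN4 1569421_at, OCLN 209925_at and OCLN 235937_at.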

Other observations

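Neighbouring junction types were measured on the same arrays. Of 15 tested adherens junction and desmosome genes, 3 were higher and 4 lower with ETX, 8 and 1 in shCPT-1, and 7 and 2 in shCPT-2, with medians of 0.00, 0.14 and 0.17 log2 units. The shares called were 46.7%, 60.0% and 60.0%, beside 41.3%, 41.1% and 46.1% of all tested genes. CDH2, among the 4 lower with ETX, had every ETX array under the array medians. It passed the filter through the other groups, so its call is not read as support. In shCPT-1 the desmosomal cadherin DSC2 rose by 0.86 ± 0.09, JUP, the gene of plakoglobin, by 0.85 ± 0.10 and NECTIN3, an adhesion molecule of adherens junctions, by 0.71 ± 0.06 (limma adjusted p = 1.18e-05, 3.63e-05 and 3.31e-06). DSC2 and JUP were 0.85 ± 0.09 and 0.58 ± 0.10 lower in shCPT-2 than in shCPT-1. PKP2, a desmosomal plaque protein, rose by 0.55 ± 0.09 with ETX and 0.66 ± 0.09 in shCPT-2. DSP, desmoplakin, rose by 0.41 ± 0.05 and 0.42 ± 0.05 in shCPT-1 and shCPT-2.

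Of 12 tested luminal breast epithelium markers, 2 were higher and 4 lower with ETX, 3 and 3 in shCPT-1, and 1 and 5 in shCPT-2, a share of 50.0% each time. Of 10 mesenchymal and claudin-low line markers, 0 and 1 were called with ETX, 2 and 4 in shCPT-1, and 0 and 4 in shCPT-2, which is 1, 6 and 4 of 10. Of all tested genes 41.3%, 41.1% and 46.1% were called. FOXA1 and SPARC are counted above as lower in both knockdown lines, and CDH2 as lower with ETX. Every knockdown array of FOXA1 and SPARC, and every ETX array of CDH2, lay under the array medians. These genes passed the filter through other groups, so those calls are not read as support. Of leukocyte, endothelium and fibroblast markers, 2 of 8, 5 of 9 and 4 of 8 with a probe set passed the filter on dim probe sets. Those that passed were CD3E and CSF1R, then PECAM1, KDR, TEK, TIE1 and ESAM, then PDGFRA, PDGFRB, COL1A1 and THY1. The others, PTPRC, CDH5 and DCN among them, did not. The brightest that passed were ESAM and COL1A1, at 10.24 and 8.27 log2 units in scramble. The part of these lists in the claudin differences was not tested.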
